A study of Mus musculus with 2 samples.

Results

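The sirtuins, Sirt1 to Sirt7, are the 7 mouse members of a protein family that removes acyl groups from lysines. They were picked by gene symbol out of 30905 genes, and all 7 were found in the count matrix. Each reaction consumes nicotinamide adenine dinucleotide (NAD+), which ties the activity of these enzymes to the metabolic state of the cell. Sirt1, Sirt6 and Sirt7 act mainly in the nucleus, Sirt2 mainly in the cytoplasm, and Sirt3, Sirt4 and Sirt5 in mitochondria. In brain, Sirt2 is known as a tubulin deacetylase that is abundant in oligodendrocytes, the cells that make myelin.

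Nuclei came from frozen cerebral cortex of untreated wild-type C57BL/6 mice on a normal diet and were profiled with the 10x Genomics droplet assay, in which a unique molecular identifier (UMI) marks each captured RNA molecule. Per the labels there were 2 samples, an 18-month and a 2-month one, each pooled from 3 mice. The series text gives these ages as ranges and names ageing of the blood-brain barrier as the subject. The deposited matrix holds 2 barcode suffixes, here library 1 and library 2. Which suffix belongs to which age is not in the labels, so ages are not compared. The matrix counts as 1 pooled sample, no test was run, and both libraries are given unless 1 is named.

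The libraries held 58108297 and 60547146 UMIs over 8914 and 8587 barcodes, and 8286 and 7954 nuclei were kept. Their median depth before filtering was 5992 and 6450 UMIs per barcode. The nuclei were clustered without the sirtuins, and clusters were named from marker genes. Each name stands for nuclei that are like that cell type (oligodendrocyte-like, for example), and all markers of each of the 10 compared classes were detected in that class in both libraries. Some nuclei carried markers of striatal and hippocampal neurons although the labelled tissue is cortex. The libraries shared 19 barcode sequences.

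Over all barcodes Sirt1 gave 1033 UMIs in library 1 and 802 in library 2, and Sirt2 gave 2807 and 2451 UMIs in the same order. Sirt3 gave 1846 UMIs in library 1 and 1276 in library 2, Sirt4 gave 913 and 537, and Sirt5 gave 917 and 571. Sirt6 gave 437 UMIs in library 1 and 206 in library 2, and Sirt7 gave 2527 and 1219. These totals set the precision of each value and do not rank the genes, whose lengths differ. Below, a level is a gene's UMIs divided by all UMIs of a class in a library, on the CPM scale. Each bracket holds an exact Poisson interval at 95%, or an exact Clopper-Pearson interval for a share of nuclei, and covers counting error only. Where a count is 0, the limit given is the level of 3 counts.

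Sirt2 was the sirtuin with a clear cell class pattern. Its level was highest in the oligodendrocyte lineage in both libraries. With the reported settings it reached its maximum in a small cluster of newly formed oligodendrocytes, with 42 nuclei in library 2 and 3 in library 1. That cluster did not stand apart under several other settings. When such nuclei were taken by markers, their interval in library 1 overlapped those of precursors and oligodendrocytes. UMIs of the other 6 sirtuins were spread over neurons, glia and vascular cells, and their order over classes differed between the libraries. The part of RNA carried over from neurons in the glial and vascular levels was not tested. With the reported settings Sirt2, 1 of 7 members, had the same highest compared class in both libraries. Of 16213 genes with at least 20 UMIs in each library 45.9% did, and 43.0% of the 7018 genes with UMI totals in the range of the sirtuins did. Under other settings the count of members ran between 0, after thinning to 1500 UMIs, and 3, and 3 of 7 is close to that share of genes, so the count does not set the family apart. None of the 7 was at least 2-fold over the next class in both libraries, against 10.4% of all genes and 8.36% of those in the sirtuins' range.

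**Figure D1:**
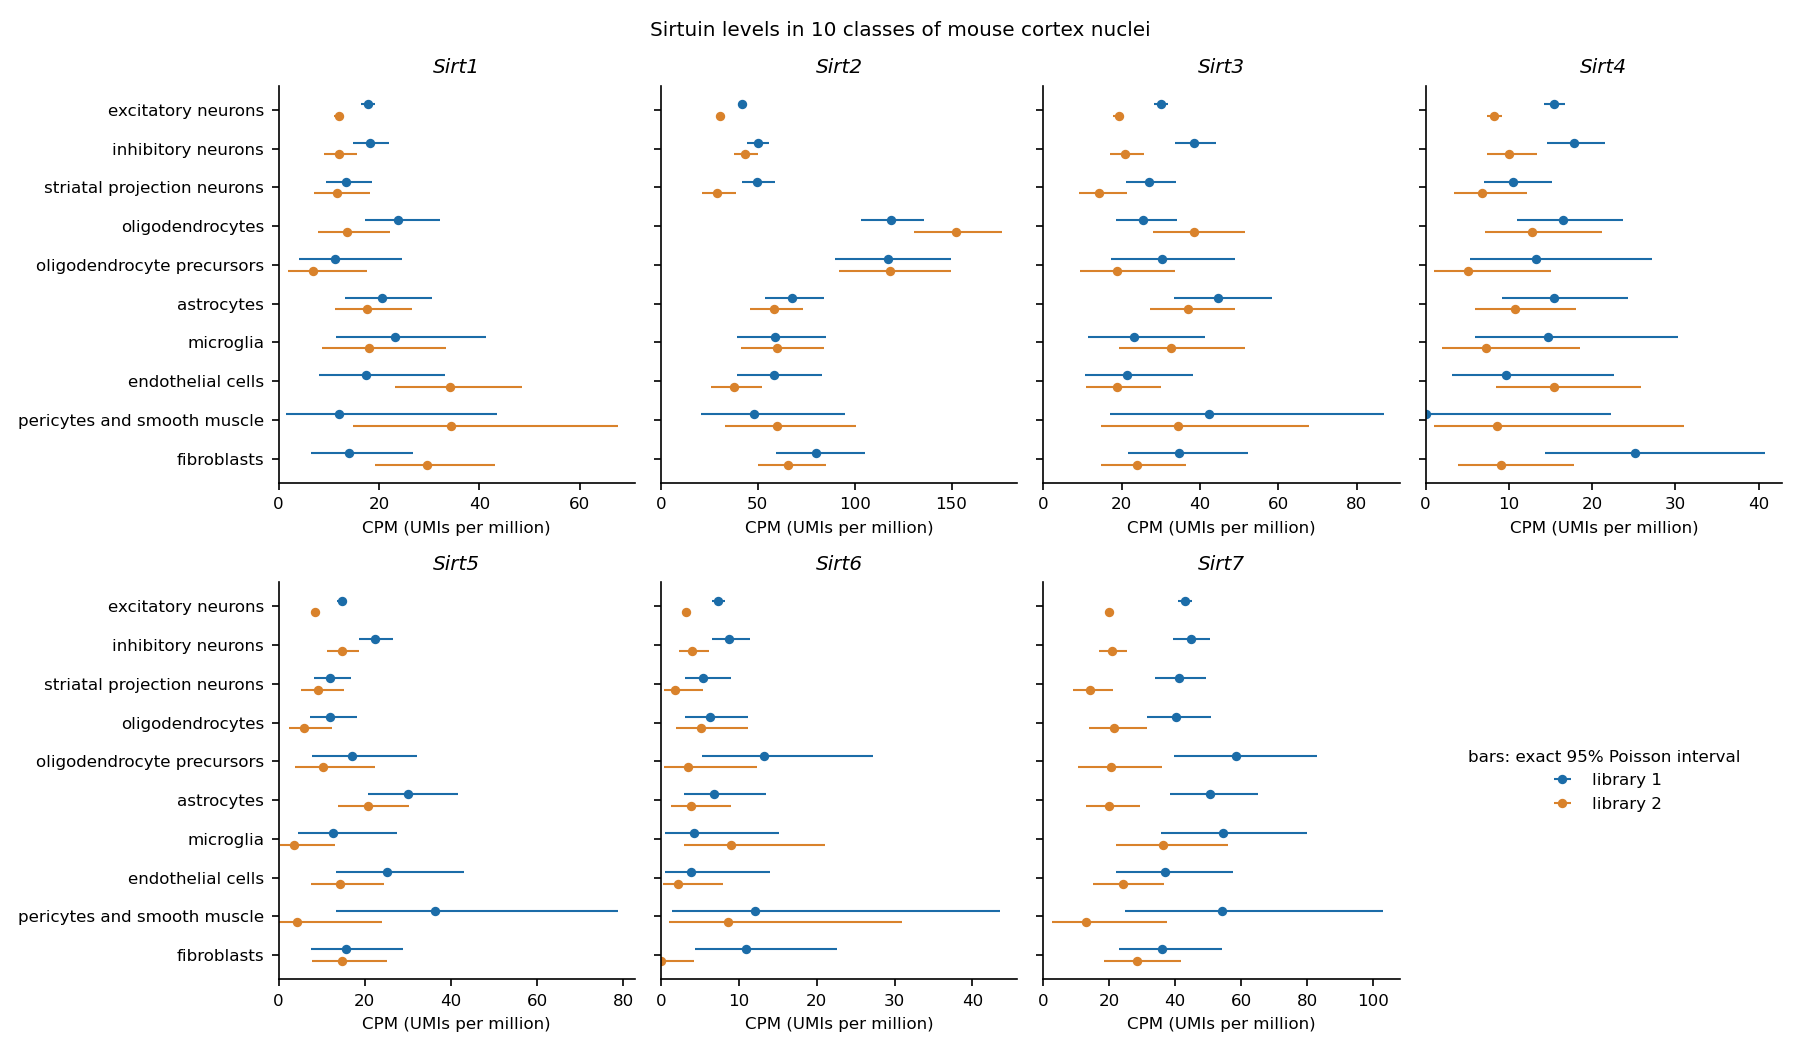
Level of each sirtuin (x axis, CPM, a separate scale per gene) in 10 classes of nuclei (y axis), with library 1 in blue and library 2 in orange, and bars for the exact 95% Poisson interval. Oligodendrocytes show Sirt2 at 119 and 152 CPM, and precursors show it at 117 and 118 CPM, above the 3 neuron classes, while most intervals of the other genes overlap across classes.

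The Sirt2 gene lies at chr7:28766735-28788661 on the plus strand (build GRCm38). Its promoter is shown because Sirt2 carries the class pattern, and that of Sirt1, at chr10:63319005-63381704 on the minus strand, because it had the highest share of G or C among the 9 promoters that RefSeq gives for the 7 members. Both are the 250 bases before the start in RefSeq (GRCm38.p6), read 5′ to 3′ on the gene's strand, at chr7:28766502-28766751 and chr10:63339036-63339285. Capitals mark an E-box (CACGTG) or a GC box (GGGCGG, also read as its complement CCGCCC), and matches that overlap each other are counted separately.
Sirt2: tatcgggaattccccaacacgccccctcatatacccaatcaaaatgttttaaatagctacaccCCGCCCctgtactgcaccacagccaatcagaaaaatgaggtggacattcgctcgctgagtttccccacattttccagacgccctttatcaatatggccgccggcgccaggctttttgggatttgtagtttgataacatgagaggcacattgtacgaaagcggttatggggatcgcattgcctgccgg
Sirt1: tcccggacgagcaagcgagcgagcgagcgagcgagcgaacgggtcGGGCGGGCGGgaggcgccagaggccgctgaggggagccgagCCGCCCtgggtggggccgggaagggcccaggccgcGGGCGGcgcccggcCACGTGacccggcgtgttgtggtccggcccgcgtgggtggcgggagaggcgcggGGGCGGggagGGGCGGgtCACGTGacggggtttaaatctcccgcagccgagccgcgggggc
The Sirt2 window had 50% G or C, 13 CpG dinucleotides, 1 GC box and no E-box. The Sirt1 window had 79.2% G or C, 39 CpG dinucleotides, 6 GC boxes and 2 E-boxes. Neither held ACAAAG, the core letters bound by SOX factors, searched on both strands. Over 32851 promoters of the same length, 32.7% held a GC box, 6.02% an E-box and 16.5% the SOX letters.

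In oligodendrocytes Sirt2 had 209 UMIs in library 1 (118.7 CPM, 103 to 136) and 178 UMIs in library 2 (152 CPM, 131 to 176). Oligodendrocyte precursors, the dividing cells that give rise to oligodendrocytes, had 62 UMIs in library 1 (117 CPM, 89.7 to 150) and 69 UMIs in library 2 (118 CPM, 91.9 to 150). The intervals of these 2 classes overlapped in each library, so their order is not resolved. The oligodendrocyte interval lay above that of 7 of the 8 other compared classes in library 1 and of all 8 in library 2.

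The lowest compared class for Sirt2 was excitatory neurons in library 1 and striatal projection neurons in library 2. Inhibitory neurons were not resolved from microglia, endothelial cells or pericytes with smooth muscle, whose intervals overlapped theirs in each library. Excitatory neurons had 41.7 CPM in library 1 and 30.3 CPM in library 2, inhibitory neurons 49.9 and 43.4 CPM, and striatal projection neurons 49.8 and 28.9 CPM. Between these levels and the oligodendrocyte lineage stood fibroblasts with 80.0 CPM in library 1 and 65.8 CPM in library 2, and astrocytes with 67.6 and 58.5 CPM. Microglia had 58.8 and 59.8 CPM, endothelial cells 58.1 and 37.5 CPM, and pericytes with smooth muscle 48.3 CPM (20.8 to 95.1) and 60.1 CPM (32.9 to 101). In library 1 the fibroblast interval (59.6 to 105) met that of oligodendrocytes, and in library 2 it did not (49.9 to 85.0).

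A cluster of 45 nuclei carried markers of newly formed oligodendrocytes, the stage between precursor and myelinating cell. Library 1 gave 3 of these nuclei and library 2 gave 42, so the cluster is mostly that of library 2. Under 4 other settings these nuclei and the precursors formed 1 cluster, in which Sirt2 had between 243 and 313 CPM in library 2. The joined level of library 1 is not given. With the reported settings library 1 had 3 newly formed nuclei beside 132 precursors. In library 2 Enpp6, a choline phosphodiesterase of this stage, stood at 1063 CPM there, against 1.71 CPM in precursors and 95.7 CPM in oligodendrocytes. Pdgfra, the growth factor receptor of precursors, stood at 4.30 CPM there (1 UMI), against 695 CPM in precursors. Mog, a surface protein of mature myelin, stood at 38.7 CPM, against 704 CPM in oligodendrocytes. Mbp, of the same oligodendrocyte marker list, was much less reduced, at 3317 CPM there (3087 to 3560) against 4156 CPM in oligodendrocytes (4040 to 4275).

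Sirt2 had 172 UMIs in the 42 newly formed nuclei of library 2, a level of 740 CPM (634 to 859). The 3 nuclei of library 1 held 15 UMIs, a level of 1511 CPM (845 to 2491). In library 2 the newly formed level was 6.26 times that of precursors (4.71 to 8.41) and 4.87 times that of oligodendrocytes (3.92 to 6.03). In library 1 it was 12.9 times that of precursors (6.82 to 23.0) and 12.7 times that of oligodendrocytes (7.0 to 21.5). The intervals of this cluster lay above those of both other stages in each library. The value of library 1 has 3 nuclei behind it, and 1 of them held 10 of the 15 UMIs.

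The signal of library 2 was spread over the nuclei. In library 2, 41 of 42 newly formed nuclei had a Sirt2 UMI (97.6%), with a median of 4 and a maximum of 10 UMIs per nucleus. Newly formed nuclei were deeper, with a median of 4745 UMIs against 3393 in precursors and 2510 in oligodendrocytes. After every nucleus was thinned to 1500 UMIs, which removes that gap, 76.2% of newly formed nuclei of library 2 had a Sirt2 UMI (60.5 to 87.9), against 17.1% of precursors (11.6 to 23.9) and 16.5% of oligodendrocytes (13.1 to 20.5). Unthinned, these shares in library 2 were 34.2% of precursors and 29.0% of oligodendrocytes. In library 1 the thinned share was 3 of 3 newly formed nuclei, 17.6% of precursors and 16.4% of oligodendrocytes. Nuclei under 1500 UMIs were left out, 116 oligodendrocytes and 1 precursor in library 1 and 7 oligodendrocytes in library 2. No class is known to lack Sirt2, and excitatory neurons had thinned shares of 6.66% in library 1 and 5.19% in library 2.

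**Figure D2:**
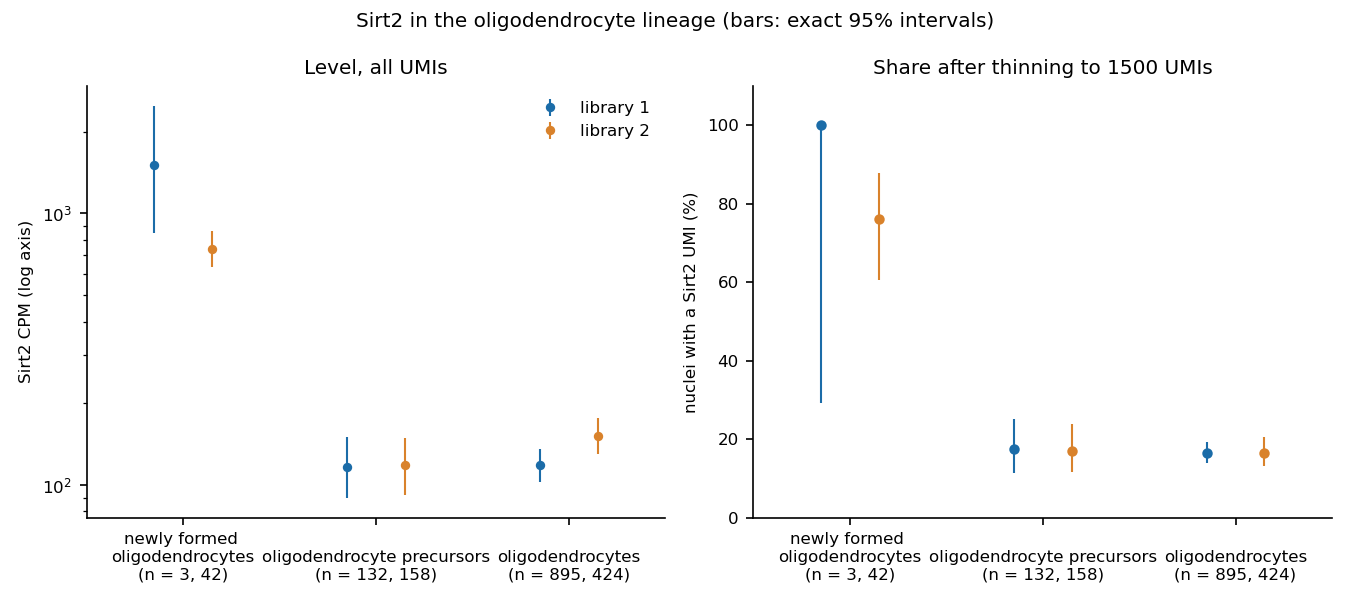
Sirt2 level in CPM on a log axis (left) and percent of nuclei with a Sirt2 UMI after thinning to 1500 UMIs (right) in newly formed oligodendrocytes, precursors and oligodendrocytes, with library 1 in blue, library 2 in orange, bars for exact 95% intervals and the number of nuclei of each library under each name. Newly formed nuclei stand at 1511 and 740 CPM, above the 117 to 152 CPM of the other stages.

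Of the 2034 genes with at least 20 UMIs in the newly formed nuclei of library 2, 98 (4.82%) were at least 2-fold over every compared class there, and Sirt2 had rank 22 by that ratio. Sirt2 itself passed that minimum in the group where it was high. Enpp6, Fyn, a kinase of early myelination, and Tns3 were among the 10 highest, and are named here after their values were seen. The median doublet score was 0.0638 in the newly formed nuclei of library 2, against 0.00542 in precursors and 0.00713 in oligodendrocytes. The part of mixed droplets in the newly formed level was not tested. Taken instead as the nuclei of any cluster with a UMI of at least 4 of the 6 newly formed markers, a choice made after the data were seen, 72 nuclei of library 2 gave 405 CPM (350 to 466) and 21 nuclei of library 1 gave 181 CPM (117 to 267). By that choice the interval of library 1 overlapped those of precursors and oligodendrocytes, and the interval of library 2 stayed above both. Of the nuclei so taken, 41 of 72 in library 2 and 2 of 21 in library 1 belonged to the newly formed cluster. The 405 CPM is therefore no value independent of that cluster.

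The other sirtuins were low or unresolved in the newly formed nuclei. In library 2 Sirt1 gave 5 UMIs there, Sirt7 4, Sirt3 2, Sirt4 2, Sirt5 1 and Sirt6 1. Sirt7 gave 2 and Sirt6 1 UMI in library 1, and Sirt1, Sirt3, Sirt4 and Sirt5 gave 0, which allows up to 302 CPM in 3 nuclei. Nfkbib, which lies on the opposite strand over part of Sirt2, had 17.2 CPM (4 UMIs) in the newly formed nuclei of library 2. Whether the counting used strand is not given in the sources used here, so reads of this pair cannot be told apart from the counts alone.

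Finer clustering at resolution 2 split the oligodendrocytes largely by library. The first, with 23 nuclei from library 1 and 376 from library 2, had Sirt2 at 126 and 159 CPM. The other, with 872 nuclei from library 1 and 46 from library 2, had Sirt2 at 118 CPM (103 to 136) and 84.1 CPM (38.4 to 160). Opalin, a marker of mature oligodendrocytes, stood at 363 and 300.0 CPM in the first cluster and at 107 and 84.1 CPM in the other. The 4 Sirt2 intervals all overlapped. Those of the 376 nuclei (from 135.8 CPM) and of the 872 nuclei (to 135.9 CPM) only just met.

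Droplets also capture free RNA, which was not measured here, and its part in the Sirt2 level outside oligodendrocytes was not tested. Nor was its part in the levels of the other sirtuins tested in any class. The 7 excitatory neuron markers summed to 3810 CPM in excitatory neurons of library 1 and 3868 CPM in those of library 2. In microglia they summed to 2127 and 1909 CPM, in oligodendrocytes to 1603 and 1482 CPM and in fibroblasts to 1036 and 984 CPM. The levels of 8 oligodendrocyte markers outside oligodendrocytes are given beside those of Sirt2. In excitatory neurons Sirt2 reached 0.351 of its oligodendrocyte level in library 1 (0.304 to 0.408) and 0.199 in library 2 (0.170 to 0.234). The highest marker there, Cnp, reached 0.0770 and 0.109, and the median marker 0.0255 and 0.0199. In precursors Sirt2 reached 0.986 and 0.777 of the oligodendrocyte level, against 0.204 and 0.315 for Cnp. In 9 classes of each library the lower bound for Sirt2 exceeded at least 7 of the 8 markers.

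**Figure D3:**
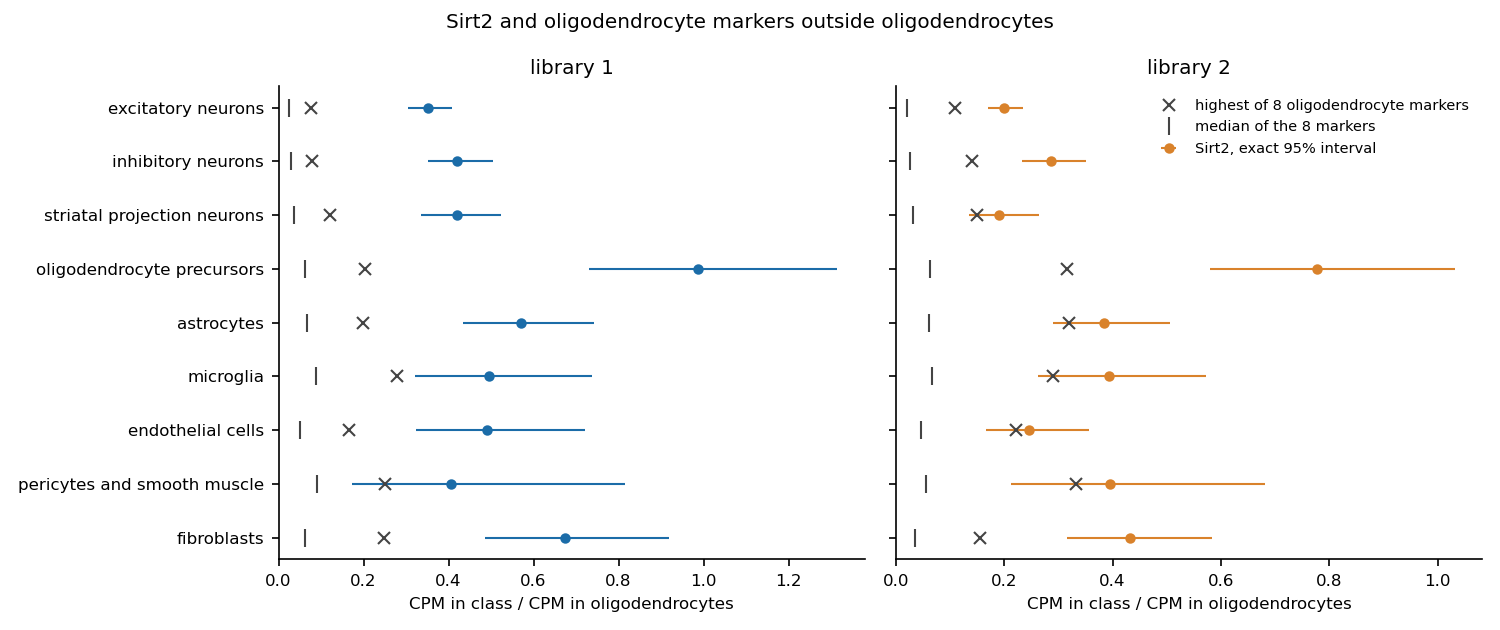
Level in each class over the level in oligodendrocytes (x axis, ratio of CPM) for Sirt2 (points, bars for the exact 95% interval), for the highest of 8 oligodendrocyte markers (crosses) and for the median marker (ticks), in library 1 (left) and library 2 (right). Sirt2 lies to the right of the markers in all 9 classes, and its bar reaches the highest marker in pericytes of library 1 and in 5 classes of library 2.

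Over 25 groups (7 glial, vascular and fibroblast classes and 18 neuron subtypes), the Sirt2 profile of library 1 correlated with that of library 2 at r = 0.87 on the log2(CPM + 1) scale. The same r was between -0.14 and 0.41 for the other 6 members. The groups of a library share its depth and base composition, and these values are a description. The genes most like Sirt2, by the lower of the r values of the libraries among 11050 genes, were Bcas1 (0.86 in library 1 and 0.90 in library 2), Olig1 (0.86 and 0.85), Kif13a (0.85 and 0.88), Wipf1 (0.83 and 0.84) and Chd7 (0.82 and 0.83). Bcas1 and Olig1 are themselves markers used to name classes of this lineage.

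Among the mitochondrial members, Sirt3 is the main deacetylase of the mitochondrial matrix. Its class levels ran between 21.3 CPM in endothelial cells and 44.5 CPM in astrocytes in library 1, and between 14.2 CPM in striatal projection neurons and 38.5 CPM in oligodendrocytes in library 2. Astrocytes had 52 UMIs in library 1 (44.5 CPM, 33.2 to 58.3) and 48 in library 2 (36.9 CPM, 27.2 to 48.9), first and next to first in order. Their interval lay above that of excitatory neurons in both libraries, where Sirt3 had 30.1 CPM (28.3 to 31.9) and 19.2 CPM (17.9 to 20.6). With nuclei thinned to 1500 UMIs these intervals overlapped, at 46.8 CPM in astrocytes (31.6 to 66.9) and 28.9 CPM in excitatory neurons (24.9 to 33.4) of library 1, and at 36.2 CPM (22.9 to 54.3) and 20.7 CPM (17.4 to 24.5) in library 2. Thinning left 30 astrocyte and 187 excitatory UMIs in library 1, and 23 and 136 in library 2, so the intervals widened. Astrocytes stayed higher than excitatory neurons in each library. Oligodendrocytes had 25.6 CPM in library 1 and 38.5 CPM in library 2, with overlapping intervals.

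Within neurons, Sirt3 was highest in the parvalbumin subtype of inhibitory neurons in both libraries when all UMIs were used, and not after thinning. These fast-spiking interneurons are known for a high demand for mitochondrial energy. They had 126 UMIs in library 1 (53.7 CPM, 44.7 to 63.9) and 53 in library 2 (30.0 CPM, 22.5 to 39.3). The next subtype had 37.9 CPM in library 1 (an excitatory cluster with no subtype name, led by Col24a1 and Oprk1) and 24.2 CPM in library 2 (hippocampal CA1-like neurons). The parvalbumin interval lay above that of 15 of the 17 other subtypes in library 1 and of 3 of 17 in library 2. Sst interneurons had 33.5 and 15.4 CPM, and the joint Vip and Lamp5 group 24.0 and 15.2 CPM. With all UMIs both were below the parvalbumin neurons, an order that did not hold throughout after thinning.

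Sirt3 was the only member, 1 of 7, whose highest neuron subtype was the same in both libraries, against 34.4% of 15477 genes. No member had a highest subtype with an interval above the next in both libraries (0 of 7, against 6.38% of genes), and for the classes this count was also 0 of 7, against 13%. With nuclei thinned to 1500 UMIs parvalbumin neurons kept 15 Sirt3 UMIs in library 1 (36.9 CPM, 20.7 to 60.9) and 6 in library 2 (17.7 CPM, 6.5 to 38.5) and had rank 7 and rank 13 of the 18 subtypes. Sst neurons were then first in library 1 (51.5 CPM, 28.9 to 85.0) and a small excitatory cluster led by Fermt1 in library 2 (43.0 CPM, 4 UMIs), and no subtype interval lay below that of the parvalbumin neurons.

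Sirt5, which removes succinyl, malonyl and glutaryl groups, lay between 11.9 and 36.2 CPM over the classes of library 1 and between 3.62 and 20.8 CPM over those of library 2. Astrocytes had 35 UMIs in library 1 (29.9 CPM, 20.9 to 41.6) and 27 in library 2 (20.8 CPM, 13.7 to 30.2). That interval lay above those of 3 classes in each library, excitatory neurons at 14.7 and 8.48 CPM among them. With nuclei thinned to 1500 UMIs the Sirt5 interval of astrocytes overlapped that of excitatory neurons in both libraries, at 26.5 CPM (17 UMIs) against 16.1 CPM in library 1 and 15.7 CPM (10 UMIs) against 10.4 CPM in library 2. At 1000 UMIs 0.701% of astrocytes of library 2 had a Sirt5 UMI (3 nuclei). Excitatory neurons had 0.914% (0.654 to 1.24), so the reverse order at that depth is not resolved. Pericytes with smooth muscle, at 36.2 CPM in library 1 (6 UMIs, 13.3 to 78.8), had 4.29 CPM (1 UMI) in library 2.

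Parvalbumin neurons were also high for Sirt5, with 60 UMIs in library 1 (25.6 CPM, 19.5 to 32.9) and 33 in library 2 (18.7 CPM, 12.9 to 26.2). Their interval lay above those of 5 of 17 other subtypes in library 1 and 7 of 17 in library 2. Thinned to 1500 UMIs they had 7 UMIs in library 1 (17.2 CPM) and 5 in library 2 (14.7 CPM), with no lower subtype apart. Rorb middle-layer neurons were the lowest subtype in both libraries, at 10.7 CPM (7.55 to 14.8) and 5.70 CPM (3.43 to 8.90). In library 1 the small cluster led by Fermt1, which has no subtype name, had 27.8 CPM (18 UMIs), and in library 2 it had 6.45 CPM (4 UMIs).

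**Figure D4:**
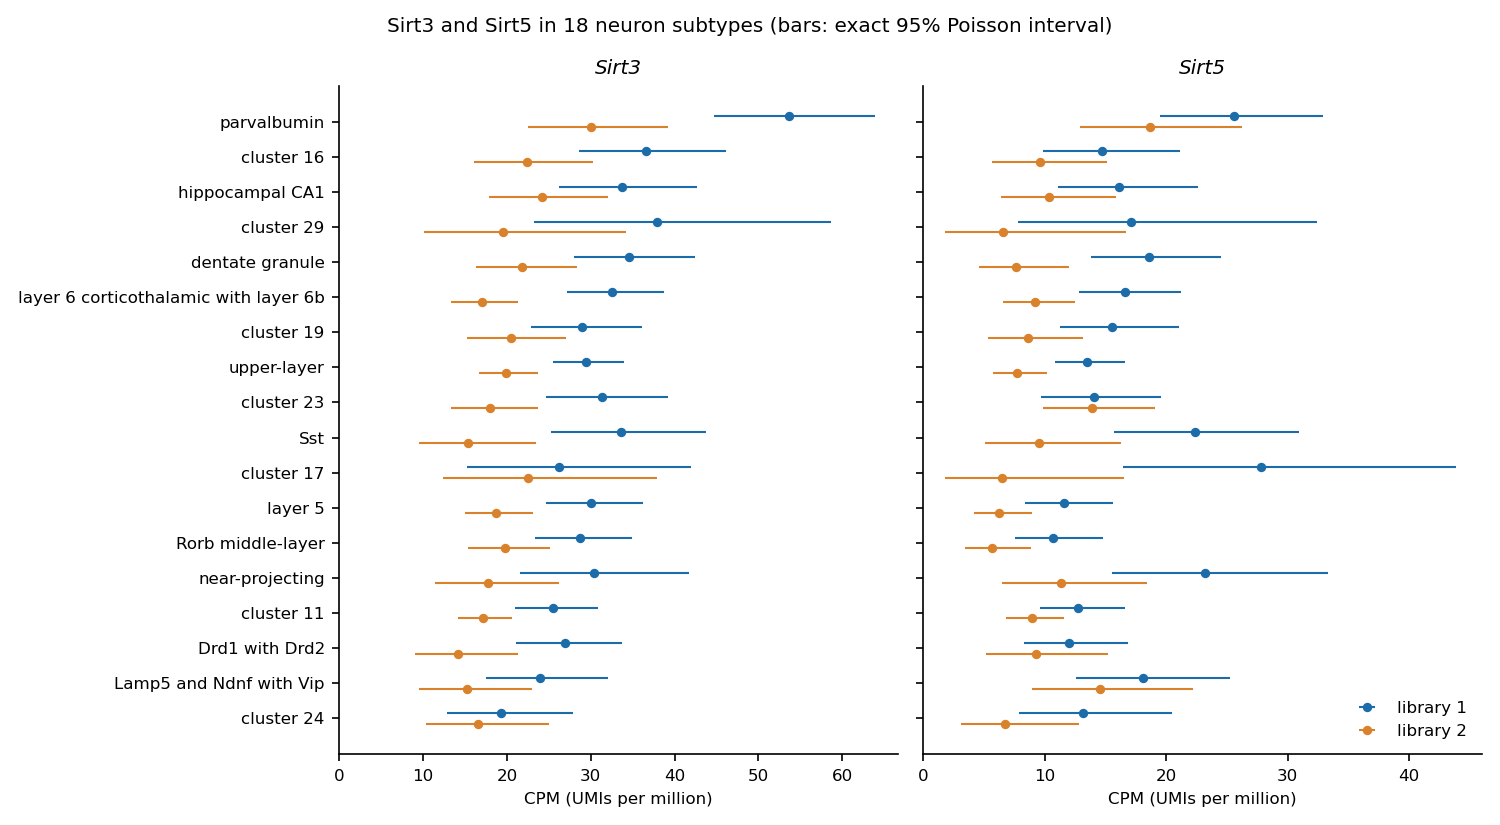
Unthinned Sirt3 (left) and Sirt5 (right) levels in CPM (x axis) in 18 neuron subtypes (y axis, in order of the mean Sirt3 level of the libraries), with library 1 in blue, library 2 in orange and bars for the exact 95% Poisson interval. Parvalbumin neurons stand first for Sirt3 at 53.7 and 30.0 CPM and at 25.6 and 18.7 CPM for Sirt5.

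Sirt4, a lipoamidase and ADP-ribosyltransferase of mitochondria, showed no class that stood apart. It had 15.4 CPM in excitatory neurons of library 1 (14.2 to 16.7) and 8.21 CPM in those of library 2 (7.35 to 9.14). Fibroblasts were highest in library 1 (25.1 CPM, 16 UMIs) and endothelial cells in library 2 (15.4 CPM, 14 UMIs). In pericytes with smooth muscle of library 1 Sirt4 had 0 UMIs, which allows up to 18.1 CPM, and in library 2 it had 2 UMIs. In every class of each library the Sirt4 interval overlapped that of the highest class.

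Ependymal nuclei, which line the ventricles, were too few to be among the compared classes (15 in library 1 and 29 in library 2). Sirt3 had 6 UMIs there in library 1 (104 CPM, 38.2 to 226) and 7 in library 2 (53.4 CPM, 21.5 to 110). Both intervals overlapped with those of astrocytes.

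Of the nuclear members, Sirt1 deacetylates histones and transcription factors such as the FOXO proteins. Its class levels overlapped throughout library 1, between 11.3 CPM in oligodendrocyte precursors and 23.8 CPM in oligodendrocytes. In library 2 the pericyte, endothelial and fibroblast classes came first. Pericytes with smooth muscle had 34.3 CPM (8 UMIs, 14.8 to 67.7), endothelial cells 34.1 CPM (31 UMIs, 23.2 to 48.5) and fibroblasts 29.5 CPM (26 UMIs, 19.3 to 43.2).

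The endothelial interval in library 2 lay above those of 5 lower classes and the fibroblast interval above those of 4, excitatory neurons at 12 CPM (11.0 to 13.1) among them. In library 1 endothelial cells had 17.4 CPM (9 UMIs, 7.97 to 33.1), fibroblasts 14.1 CPM (9 UMIs, 6.46 to 26.8) and pericytes with smooth muscle 12.1 CPM (2 UMIs). For each of these 3 classes the intervals of the libraries overlapped. In neurons Sirt1 stayed between 13.2 and 21.5 CPM in library 1 and between 6.74 and 18.1 CPM in library 2, and no subtype interval stood above another.

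Sirt6, a chromatin deacetylase linked to DNA repair and telomeres, was thinly covered. It had 275 UMIs in excitatory neurons of library 1 (7.35 CPM, 6.5 to 8.27) and 130 in those of library 2 (3.19 CPM, 2.66 to 3.78). The other classes had between 2 and 51 UMIs in library 1 and between 0 and 18 in library 2. In fibroblasts of library 2 it had 0 UMIs, which allows up to 3.40 CPM, and in those of library 1 it had 7 UMIs (11.0 CPM). No class stood apart from another within a library.

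Sirt7, which acts in the nucleolus and on ribosomal gene transcription, lay between 36.1 CPM in fibroblasts and 58.5 CPM in oligodendrocyte precursors in library 1, with all intervals overlapping. In library 2 it lay between 12.9 CPM in pericytes with smooth muscle and 36.2 CPM in microglia (20 UMIs, 22.1 to 55.9). The microglia interval lay above those of excitatory neurons (20.1 CPM) and striatal projection neurons (14.2 CPM). The microglia also carried border macrophage markers, at a summed 349 CPM in library 1 and 563 CPM in library 2, with Mrc1, Pf4, Cd163, F13a1 and Lyve1 as the list, and their part in that level was not tested. Mafg overlaps Sirt7 on the same strand, so the reads of this pair are uncertain, and it stood at 122 CPM in microglia of library 1 and 74.2 CPM in those of library 2. Ric8a and Psmd13 overlap Sirt3 on the opposite strand, as Gm16145 does Sirt1.

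Summed over the family, the newly formed oligodendrocytes held 18 UMIs in library 1 (1813 CPM, 1074 to 2865) and 187 in library 2 (805 CPM, 693 to 929), of which Sirt2 gave 15 and 172. Among the 10 compared classes the sum was highest in oligodendrocyte precursors in library 1 (260.4 CPM, 219 to 308) and in oligodendrocytes in library 2 (249.5 CPM, 222 to 280). The lowest was in striatal projection neurons in both, at 159 CPM (145 to 175) and 86.8 CPM (73.1 to 102). The mitochondrial members alone summed to 89.8 CPM (73.5 to 109) in astrocytes of library 1 and 68.5 CPM (55.0 to 84.2) in those of library 2. They summed to 60.1 CPM and 35.9 CPM in excitatory neurons, and the intervals of the 2 classes were apart in each library. These sums were not thinned, and the thinned Sirt3 and Sirt5 intervals of the 2 classes overlapped, as given above. The astrocyte interval of the sum also overlapped that of fibroblasts in each library (55.5 to 99.9 and 34.3 to 64.4). It overlapped that of inhibitory neurons in library 1 (71.6 to 86.2) and lay above it in library 2. The nuclear members alone summed to 77.9 CPM in astrocytes and 68.1 CPM in excitatory neurons of library 1, and to 41.5 and 35.3 CPM in library 2, with overlapping intervals.

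Set side by side, the libraries differed in excitatory neurons for the whole family. In excitatory neurons the intervals of library 1 and library 2 were apart for all 7 members, with library 1 higher each time. Of 17407 genes 58.6% were apart there and 42.3% were apart with library 1 higher. On the log2 scale the difference of library 2 minus library 1 was -0.57 for Sirt1, -0.46 for Sirt2, -0.65 for Sirt3, -0.91 for Sirt4, -0.79 for Sirt5, -1.21 for Sirt6 and -1.10 for Sirt7. The median over 15003 genes was -0.24, so every member lay below it, and 3.03% of genes lay below Sirt6 and 29.7% below Sirt2.

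Short genes lay lower than long genes in that difference. The median was -0.36 for genes spanning at most 10 kb, -0.40 between 10 and 20 kb, -0.31 between 20 and 50 kb, -0.17 between 50 and 100 kb and 0.00 above 100 kb. Sirt4, Sirt6 and Sirt7 span 6.72, 6.01 and 6.87 kb in GENCODE. The annotations differ for Sirt1, which spans 62.7 kb in GENCODE and 20.03 kb from the RefSeq start used for its promoter, while the other members differ by less than 1 kb. Each member lay below the median of its own span range, Sirt1 in the range of either span. The part of gene span in the difference was not tested, and Mafg stood at 78.3 CPM in excitatory neurons of library 1 and 37.6 CPM in those of library 2.

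**Figure D5:**
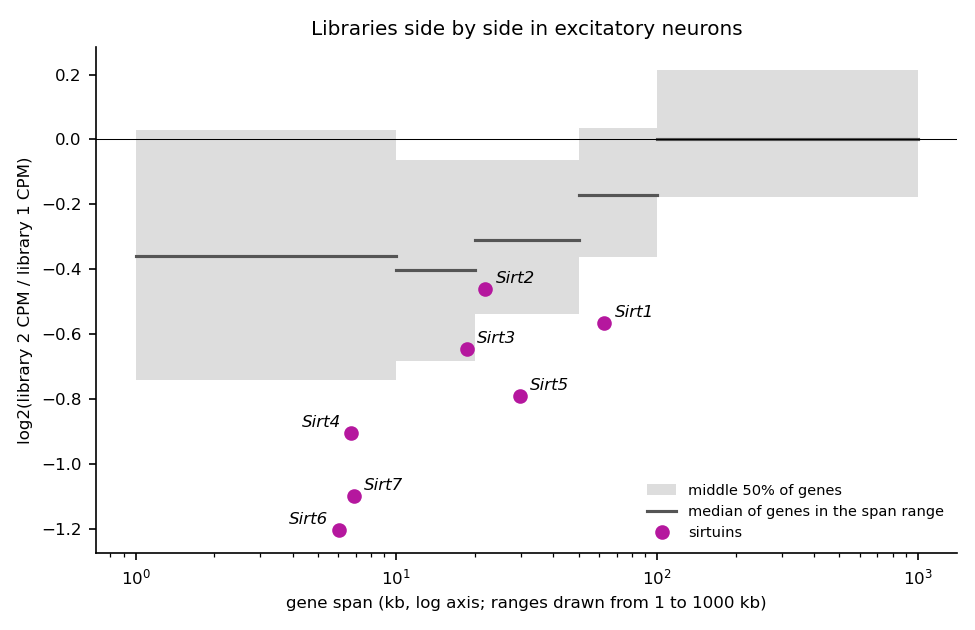
Log2 ratio of library 2 CPM over library 1 CPM in excitatory neurons (y axis) against the GENCODE span of the gene in kb (x axis, log scale) for the 7 sirtuins (points), with the median (line) and the middle 50% (grey) of genes in 5 span ranges. All 7 points lie below 0, between -0.46 for Sirt2 and -1.21 for Sirt6, and below the line of their range.

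Outside excitatory neurons fewer members were apart between the libraries. In inhibitory neurons 5 of 7 were apart, all with library 1 higher, against 28.5% of 13043 genes, and Sirt1 and Sirt2 were the exceptions. In striatal projection neurons Sirt2 and Sirt7, 2 of the 6 members with enough UMIs, were apart, against 18.0% of genes. Sirt7 was also apart in precursors (1 of 3, against 5.73%) and in astrocytes (1 of 6, against 11.2%). No member was apart in oligodendrocytes (0 of 6, against 15.7%), microglia (0 of 4, against 6.11%), endothelial cells (0 of 5, against 10.7%), fibroblasts (0 of 6, against 8.35%) or pericytes with smooth muscle (0 of 1, against 4.39%). Over all classes 16 of 51 pairs of a member and a class were apart, against 21.6% of genes and classes.

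Whether the members shared a profile cannot be decided from these counts. Apart from Sirt2, each member had a low r with its own profile in the other library, as given above. A low r between members therefore does not show that their profiles differ. Over the 25 groups the r of the 21 pairs of members ran between -0.50 (Sirt4 with Sirt5) and 0.47 (Sirt3 with Sirt5) in library 1 and between -0.34 (Sirt5 with Sirt6) and 0.59 (Sirt2 with Sirt3) in library 2. The gene most like Sirt3 was Klhl42 (0.64 in library 1 and 0.60 in library 2), followed by Pou6f1, Acss2, Zbtb43 and Timm17a. Acss2 is an acetyl-CoA synthetase and Timm17a a subunit of the mitochondrial import machinery. For Sirt5 the nearest was Nfyc (0.59 and 0.66), followed by Clybl, Slc1a4, Wasf3 and Cdc23. For Sirt1 the nearest was Atg101 (0.63 and 0.70), for Sirt4 Vps33b (0.90 and 0.65), for Sirt6 Manbal (0.52 and 0.50) and for Sirt7 Atp6v0a2 (0.60 and 0.58). These r values are the highest of 11050 genes and, for sparse genes, rest on few UMIs per group.

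Genes around the family were read from 6 lists with the same rule of at least 2-fold over the next class in both libraries, which 10.4% of all genes met. Of the NAD synthesis list, 1 of 11 measured genes met it, Nadk2, the mitochondrial NAD kinase, which uses NAD+ and does not make it. Nadk2 stood at 133 CPM in fibroblasts of library 1 and 181 CPM in those of library 2. None of 16 enzymes on the list of NAD consumption other than sirtuins (the PARP family, Cd38, Sarm1 and others) met it. Of the 11 zinc-dependent histone deacetylases, which need no NAD+, 1 met it: Hdac8, at 1017 CPM in astrocytes of library 1 and 981 CPM in those of library 2.

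None of 11 sirtuin regulators met the rule. Of 18 nuclear and cytoplasmic substrates 1 did: Srebf1, a regulator of lipid synthesis, at 59.9 CPM in astrocytes of library 1 and 45.4 CPM in those of library 2. Of 16 mitochondrial substrates 1 did: Glud1, glutamate dehydrogenase, at 399 CPM in astrocytes of library 1 and 361 CPM in those of library 2. The median ratio of the highest to the next class was 1.07 in library 1 and 1.2 in library 2 over the sirtuins, against 1.28 and 1.27 over all 16213 genes and 1.23 and 1.22 over the 7018 genes with UMI totals in the sirtuins' range.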

How the data were processed

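The values are whole-number UMI counts as the authors deposited them, not normalized. Cell Ranger 3.1.0 is named per the file headers. The submitters' processing notes name Cell Ranger 2.0.1, Seurat 3.1, R 4.0.2 and mm10, and this conflict was not settled. Annotation, strand and intron handling were not found in these sources.

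Nuclei with at least 200 genes, at most 5% mitochondrial UMIs and a Scrublet score under 0.2 were kept. Scrublet's own threshold called 0 and 2 doublets and had not worked, so this limit was set after the scores were seen, and 305 and 332 barcodes reached it. Log-normalized counts of 2000 variable genes, without sirtuins and list genes that are no markers, gave 30 components and Leiden clusters at resolution 1 (scanpy 1.11.5, igraph 0.11.9, Python 3.11.15). A class needed 3 markers at 0.25 of their maximum over clusters, a mean of 0.4 and a lead of 1.2. Border macrophage and T cell names were dropped, and these thresholds were set, after clusters were seen. Clusters led by another class's markers, or with a median depth under 0.5 of that of all nuclei and no own marker among their 10 top genes, stayed unnamed like those that missed these thresholds (744 and 916 nuclei in all). Classes with 50 or more nuclei per library entered the comparisons. Gene positions come from GENCODE vM21, of the same build.

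Named genes were all members, the 5 most alike per member and class-enriched list genes. The members, lists and tests were chosen with earlier results of these data known. No test was run. Alternatives covered filters, resolution, weighting and thinning.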

Additional observations from a re-analysis of the deposited data

Results flagged for a closer look

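Nuclei of unnamed clusters entered no comparison, and sirtuin UMIs were present in them. The family summed to 196.7 CPM (180 to 215) in the 744 such nuclei of library 1 and to 133.2 CPM (120 to 147) in the 916 of library 2. A count of 0 would have allowed 1.21 and 1.04 CPM. Most of them sit in a low-depth cluster of 535 and 711 nuclei whose markers were nearest to those of excitatory neurons. There Sirt2 stood at 48.7 and 46.8 CPM and Sirt7 at 45.2 and 18.1 CPM.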

How the results depend on the processing

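No paired analysis was possible because no label ties a barcode suffix to a sample and no test was run. The number of sirtuins with the same highest class in both libraries was 1, and it was 2 with doublets kept, 2 with a doublet score limit of 0.15, 2 at resolution 2, 3 with a mitochondrial limit of 1%, 3 with no mitochondrial limit, 3 with no genes held out and 0 when thinned to 1500 UMIs. A limit of 1%, which left 109 and 88 oligodendrocytes, gave Sirt2 levels of 98.2 and 191 CPM in them and a ratio to the next class of 2.30 in library 2. Thinning to 1500 UMIs gave Sirt2 at 128 CPM in oligodendrocytes of library 2 and Sirt3 at 36.9 and 17.7 CPM in parvalbumin neurons, which were then not the highest subtype in either library. With no minimum beyond 1 UMI, 3 genes of the NAD synthesis list, Nadk2 among them, were class-enriched. Newly formed nuclei taken by their markers, an alternative added after the data were seen, gave Sirt2 at 405 CPM in library 2. There 41 of the 72 nuclei belonged to the newly formed cluster. With doublets kept, at 0.15, with no mitochondrial limit and with no genes held out, precursors and newly formed nuclei fell into 1 cluster, so neither has a value of its own. At 1% newly formed nuclei were not named apart and the named precursors were 1 and 15 nuclei. At resolution 2 the oligodendrocyte values cover 23 and 376 nuclei. Sirt2 in precursors and newly formed nuclei together was between 243 and 362 CPM in library 2, against 295 CPM with the reported settings. The joined levels of library 1 are not given. Of 140 class levels, 34 left their interval at 1%, 23 when thinned and 8 at resolution 2. Depth limits Sirt4, Sirt5 and Sirt6 outside neurons, where most classes hold under 20 UMIs.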
